A study of Mus musculus with 16 samples.

Results

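Cytochrome P450 enzymes, encoded by the Cyp genes, were examined as a family in the colon wall of mice with and without a gut microbiota. Members were all genes of the array's probe annotation whose symbol has the form of a Cyp gene, with Cyp51 and Por (cytochrome P450 oxidoreductase) added to the rule, and 33 of the 11055 genes the annotation names, with 43 of 25697 probes, met it. Of these genes, 28 had at least 1 probe above background on 4 or more of 16 arrays and were tested among 9862 genes, and 5 did not (Cyp24a1, Cyp26a1, Cyp2b10, Cyp2c37 and Cyp4f15). Por, Cyp1a1 and Cyp1b1 were not named in the annotation and were not analysed here. In the mouse gene table of RefSeq, 100 protein-coding genes meet the same rule. The annotation used here named 15096 of the 25697 probes, and only probes detected on at least 1 array. Genes it does not name may thus be on the array without being detected, and membership depended on detection.

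RNA came from tissue labelled as smooth muscle of the proximal colon of wild type C57Bl/6 mice, with 4 Illumina BeadChip arrays in each of 4 groups. C/+Lop mice were germ-free (GF) mice gavaged with cecal contents of specific pathogen-free (SPF) donors that had drunk 0.1% loperamide for 7 days, an opioid that slows the gut and gives pharmacologically induced constipation (PIC). C/-Lop mice were GF mice gavaged with cecal contents of untreated SPF donors. SPF mice carried a conventional microbiota, and GF mice had none. Donors were 8 to 10 weeks old. Recipients were sampled up to 4 weeks after colonization and received no loperamide themselves, and mice of both sexes were used. The age of the recipients is given differently in different places of the study's text. No source used here gives the ages of the GF and SPF mice on the arrays. The labels do not say whether each array stands for a separate animal, so every p-value refers to variation among arrays that could be technical. Values are given in the order of the replicate numbers, which run 1 to 4 except in SPF mice, where they are 1, 2, 13 and 4.

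P450 enzymes are haem proteins that insert an oxygen atom into lipophilic molecules, and most of them sit in the endoplasmic reticulum and take electrons from the reductase Por. Families 2 and 3 oxidize drugs, plant compounds and arachidonic acid, family 4 hydroxylates fatty acids and leukotrienes, and other families act on sterols, bile acids, steroid hormones and retinoic acid. The liver is their main site, and in the gut they are best known from epithelial cells, where nuclear receptors and the aryl hydrocarbon (Ah) receptor set their transcription.

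The tissue label was set against marker genes first. All 10 smooth muscle markers were measured, and their mean was 10.79 to 10.84 in C/+Lop, 10.66 to 11.01 in C/-Lop, 11.13 to 11.91 in SPF and 10.53 to 11.31 in GF arrays (log2 intensity, as are all levels here). The 11 measured markers of colonic epithelium of a list of 14 were above background on every array as well, so the samples held epithelial RNA. Their mean was 11.77 to 12.05 in C/+Lop, 11.89 to 11.97 in C/-Lop, 11.46 to 12.01 in SPF and 12.03 to 12.29 in GF arrays, with SPF replicates 2 (11.46) and 4 (11.72) the lowest of all. The 4 measured markers of a small-intestinal list of 8 had a mean of 6.17 to 6.47 in C/+Lop, 6.10 to 6.68 in C/-Lop, 5.55 to 7.67 in SPF and 7.05 to 8.16 in GF arrays, with 2 of the 4 called lower in C/+Lop, 1 in C/-Lop and 2 in SPF than in GF mice. The 4 measured plasma cell markers of 5 had a mean of 8.90 to 9.36 in C/+Lop, 8.93 to 9.42 in C/-Lop, 8.77 to 9.33 in SPF and 7.54 to 7.81 in GF arrays. The 4 measured hepatocyte markers of 8 were at a mean of 6.22 to 6.96 over all groups. The part of these cells in the results below was not tested. In bulk tissue, fewer cells of a type and less RNA per cell cannot be told apart. Xist, transcribed only from an inactive X chromosome, was at 6.64 in SPF replicate 4 and at 6.85 to 7.01 in replicates 2 and 3 of both recipient groups, and on the other 11 arrays it was at 4.54 to 4.99. Median array intensity was 116.6 to 167.6, and 12364 to 13942 probes of an array were above background.

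Most of the P450 transcripts called in SPF against GF mice were lower in SPF mice. Of the 28 tested members, 8 were lower (Cyp4b1, Cyp2c65, Cyp2d26, Cyp2d9, Cyp4f14, Cyp3a13, Cyp2d10 and Cyp4f13) and 2 were higher (Cyp2d22 and Cyp4f18) at an adjusted p under 0.05 in limma, against 20.5% of all genes called, 9.55% lower and 10.9% higher. The median difference of the members was -0.23 on the log2 scale and that of all genes was 0.01. Calls fell in families 2 and 3 (5 lower and 1 higher of 15) and in family 4 (3 lower and 1 higher of 6), and none of the 7 other members was called. The same GF arrays served as the baseline for the recipient groups below, so those comparisons are not independent of this one. SPF and GF arrays did not overlap for 9 members, against 18.9% of all genes. For C/-Lop and GF arrays it was 7 members against 13.4%, and for C/+Lop and GF arrays 12 members against 17.4%.

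Family 4 held Cyp4f14, which hydroxylates leukotriene B4 and other fatty acids. Its level was 11.40, 11.72, 11.49 and 11.88 in C/+Lop arrays, 11.87, 11.37, 11.54 and 11.63 in C/-Lop arrays, 10.89, 10.10, 11.46 and 10.17 in SPF arrays, and 12.21, 12.47, 12.48 and 12.07 in GF arrays. All SPF values lay below all GF values, and those of both recipient groups lay between the SPF and GF means. It was 3.14-fold lower in SPF than in GF mice (log2 difference -1.65 ± 0.24 SE, adjusted p = 0.00091).

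Cyp4b1, which acts on fatty acids and activates some plant toxins, was at 8.21, 8.95, 8.36 and 8.01 in C/+Lop arrays, 8.49, 7.69, 8.09 and 7.25 in C/-Lop arrays, 6.59, 7.11, 7.66 and 5.34 in SPF arrays, and 9.64, 8.45, 10.27 and 9.26 in GF arrays. SPF replicate 4 was the lowest array, and no SPF array reached the GF range. The SPF mean of 6.67 ± 0.99 against a GF mean of 9.41 ± 0.76 (SD, n = 4 each) gave a 6.64-fold lower level (log2 difference -2.73 ± 0.44 SE, adjusted p = 0.0016). Without SPF replicate 4 the difference was -2.29 (adjusted p = 0.00343). Cyp4f13, the chromosomal neighbour of Cyp4f14 on chromosome 17, was at 9.99, 9.90, 9.83 and 9.86 in C/+Lop arrays, 10.13, 9.82, 9.91 and 9.81 in C/-Lop arrays, 10.03, 9.51, 10.03 and 9.51 in SPF arrays, and 10.19, 10.13, 10.54 and 10.18 in GF arrays. The SPF and GF ranges were separate but close, and the difference was the smallest of the called members (-0.49 ± 0.14 SE, adjusted p = 0.0218). This call was lost without SPF replicate 2 (adjusted p = 0.0787), SPF replicate 4 (adjusted p = 0.067) or GF replicate 3, and with median scaling or array weights.

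Cyp4f18 moved the other way. It encodes a leukotriene B4 hydroxylase known from neutrophils and other myeloid cells. Its level was 7.63, 7.19, 7.48 and 7.46 in C/+Lop arrays, 7.45, 7.50, 7.42 and 7.60 in C/-Lop arrays, 6.85, 7.75, 7.01 and 7.14 in SPF arrays, and 6.80, 6.15, 6.62 and 6.56 in GF arrays. Every array of the 3 groups with a microbiota lay above every GF array. The difference was 0.66 ± 0.17 SE in SPF against GF mice (adjusted p = 0.0165), and another probe of the gene gave 0.69 (adjusted p = 0.0198). Without GF replicate 2 the call was lost (0.53, adjusted p = 0.0588). The 4 measured macrophage markers had a mean of 7.50 to 7.73 in C/+Lop, 7.58 to 7.90 in C/-Lop, 6.99 to 8.00 in SPF and 6.60 to 7.32 in GF arrays, and the part of such cells in this result was not tested.

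**Figure D1:**
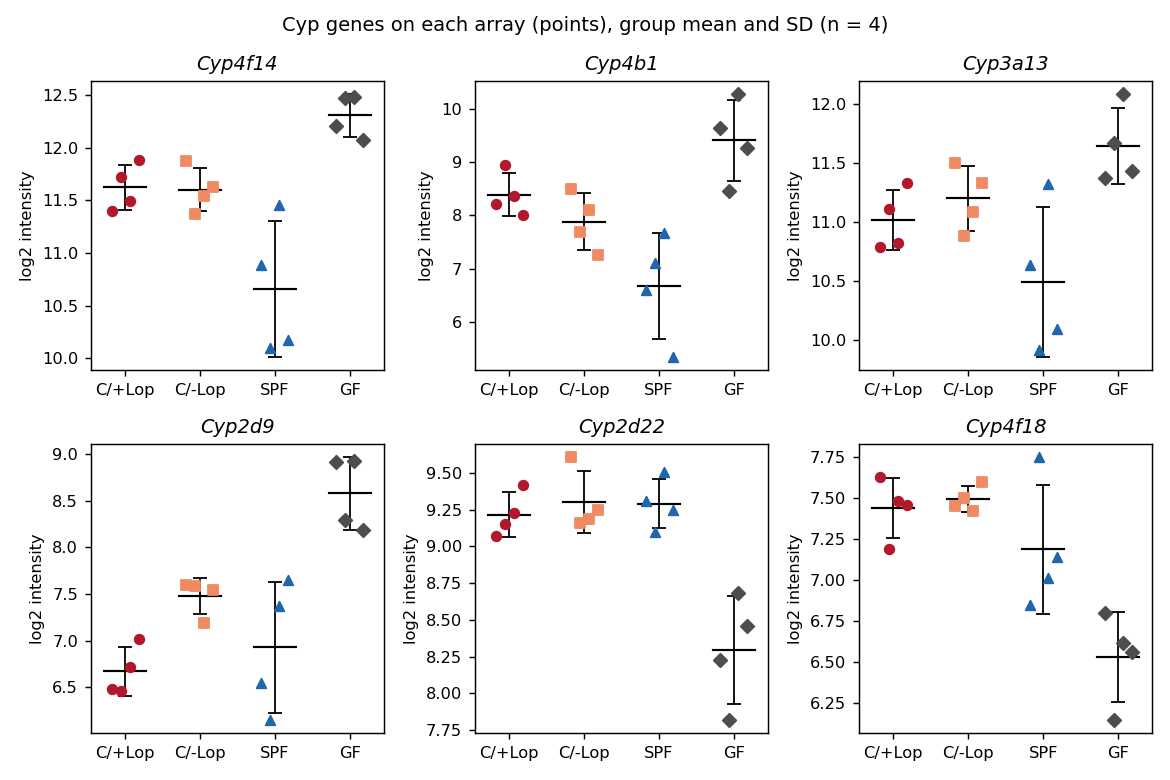
Log2 intensity (vertical axis) of 6 Cyp genes on each array, with the group mean as a line and the SD as a bar (n = 4), for C/+Lop, C/-Lop, SPF and GF mice from left to right. SPF values of Cyp4f14, Cyp4b1, Cyp3a13 and Cyp2d9 lie below all GF values, and values of Cyp2d22 and Cyp4f18 lie above all GF values in each group with a microbiota. Of all genes, 18.9% did not overlap between SPF and GF arrays, 13.4% between C/-Lop and GF arrays and 17.4% between C/+Lop and GF arrays.

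Cyp3a13, a Cyp3a gene of the mouse intestine whose family oxidizes many drugs, was at 10.79, 11.11, 10.82 and 11.33 in C/+Lop arrays, 11.50, 10.88, 11.08 and 11.33 in C/-Lop arrays, 10.63, 9.91, 11.32 and 10.09 in SPF arrays, and 11.37, 11.67, 12.08 and 11.43 in GF arrays. SPF replicates 2 and 4 were the lowest, and the highest SPF value was just under the lowest GF value. It was 2.22-fold lower in SPF mice (log2 difference -1.15 ± 0.26 SE, adjusted p = 0.00769). Both other probes of the gene were also lower, by differences of -1.94 and -1.36. Cyp3a25, a relative known from liver, was above background on 3 C/+Lop arrays, 1 C/-Lop array, 1 SPF array and 0 GF arrays.

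The Cyp2d genes lie side by side on chromosome 15, where Cyp2d22, Cyp2d11, Cyp2d10 and Cyp2d9 follow each other and Cyp2d12, Cyp2d34, Cyp2d40 and Cyp2d26 form a second run behind 1 pseudogene. They oxidize drugs and steroids, and Cyp2d9 is known in mouse liver as a male-biased testosterone hydroxylase. The 200 bases upstream of the annotated start of Cyp2d9, Cyp2d10 and Cyp2d26 are shown because these 3 genes of the cluster were called lower in SPF mice (RefSeq, GRCm38.p6, printed 5′ to 3′ on the strand of the gene). Capitals mark TTTATA, which reads TATAAA, the letters of a TATA box, on the other strand.
Cyp2d9 (chr15:82452177-82452376, strand +): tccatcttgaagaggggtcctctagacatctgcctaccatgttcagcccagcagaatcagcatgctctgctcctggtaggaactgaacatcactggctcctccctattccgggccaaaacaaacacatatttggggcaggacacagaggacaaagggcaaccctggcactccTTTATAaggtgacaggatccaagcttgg
Cyp2d10 (chr15:82407195-82407394, strand -): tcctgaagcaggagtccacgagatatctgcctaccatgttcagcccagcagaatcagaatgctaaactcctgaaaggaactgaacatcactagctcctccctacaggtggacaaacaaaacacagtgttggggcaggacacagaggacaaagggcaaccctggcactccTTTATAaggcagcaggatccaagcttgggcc
Cyp2d26 (chr15:82794246-82794445, strand -): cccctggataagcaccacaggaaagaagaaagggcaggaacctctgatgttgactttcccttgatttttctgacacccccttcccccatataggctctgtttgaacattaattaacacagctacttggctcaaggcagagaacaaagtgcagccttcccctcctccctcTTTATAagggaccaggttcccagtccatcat
The Cyp2d9 and Cyp2d10 stretches were identical in 84.0% of 206 aligned positions, and that of Cyp2d26 was identical to the Cyp2d9 stretch in 53.0% and to the Cyp2d10 stretch in 55.2%. TATAAA on either strand was found in 8 of 26 member promoters, against 10.6% of 27025 mouse promoters of this length. GCGTG, the core bound by the Ah receptor, was in 5 of 26 against 24.8%, and CAAAGTCC, a core bound by HNF4, was in 3 of 26 (Cyp2c65, Cyp2c67 and Cyp4f18) against 0.981%. AGGTCA, a nuclear receptor half-site, was in 1 of 26 (Cyp3a25) against 11.2%. TTTATNG, a CDX motif that can overlap TATAAA, was in 1 of 26 against 8.04%, and the HNF1 motif in 0 of 26 against 0.0074%. These are matches of letters and not binding sites, and Cyp2d22 was among the 7 members with no entry in the promoter table.

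Cyp2d9 was at 6.48, 6.46, 6.72 and 7.02 in C/+Lop arrays, 7.60, 7.58, 7.19 and 7.54 in C/-Lop arrays, 6.54, 6.15, 7.37 and 7.65 in SPF arrays, and 8.91, 8.29, 8.92 and 8.19 in GF arrays. All 12 arrays of mice with a microbiota lay below all 4 GF arrays. The difference in SPF against GF mice was -1.65 ± 0.27 SE, 3.14-fold lower (adjusted p = 0.00184). With Xist as a covariate the 10 calls between SPF and GF mice were the same genes. Among these arrays only SPF replicate 4 had high Xist, so for this comparison the fit bears mainly on that array. Against GF mice, Cyp2d9 lost its call in C/-Lop mice in that fit (adjusted p = 0.0734). Cyp2d34 (adjusted p = 0.0933) and Cyp3a25 (adjusted p = 0.119) lost theirs in C/+Lop mice.

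Cyp2d26 was at 6.60, 7.03, 7.00 and 7.45 in C/+Lop arrays, 7.24, 6.64, 6.67 and 6.85 in C/-Lop arrays, 6.03, 6.08, 7.43 and 5.62 in SPF arrays, and 7.91, 7.16, 9.25 and 8.09 in GF arrays. SPF replicate 13 overlapped the lowest GF array, and the other SPF arrays lay below the GF range. The difference was -1.81 ± 0.39 SE (adjusted p = 0.0068), and 2 other probes of the gene gave -1.98 and -1.78, both called. Cyp2d10 was at 7.83, 7.77, 7.88 and 7.67 in C/+Lop arrays, 8.21, 8.14, 7.80 and 7.69 in C/-Lop arrays, 7.27, 6.80, 7.58 and 8.75 in SPF arrays, and 9.23, 8.43, 8.49 and 8.26 in GF arrays. Here SPF replicate 4 was high, within the GF range, and the difference of -1.0 ± 0.31 SE (adjusted p = 0.0326) became -1.38 without it (adjusted p = 0.00244) and -0.73 without SPF replicate 2 (adjusted p = 0.116). The call was also lost without SPF replicate 1 or GF replicate 1 or 2.

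Cyp2d22, often taken as the mouse counterpart of the human drug-metabolizing enzyme CYP2D6, was higher in the same samples. Its level was 9.07, 9.15, 9.23 and 9.42 in C/+Lop arrays, 9.61, 9.16, 9.19 and 9.25 in C/-Lop arrays, 9.31, 9.10, 9.51 and 9.25 in SPF arrays, and 8.23, 7.82, 8.68 and 8.46 in GF arrays. The 3 groups with a microbiota had means of 9.22 ± 0.15, 9.30 ± 0.21 and 9.29 ± 0.17 (C/+Lop, C/-Lop and SPF), and GF mice had 8.30 ± 0.37 (SD, n = 4 each), with no overlap. The difference was 1.00 ± 0.16 SE in SPF against GF mice (adjusted p = 0.0016). Cyp2d34 was at 5.66, 6.42, 6.31 and 6.88 in C/+Lop arrays, 7.05, 6.45, 6.44 and 6.87 in C/-Lop arrays, 6.71, 5.65, 6.85 and 6.87 in SPF arrays, and 7.34, 7.49, 7.32 and 6.96 in GF arrays, and SPF replicate 2 was far below the other SPF arrays. Its difference of -0.76 ± 0.27 SE in SPF against GF mice was not called (adjusted p = 0.0617). The probe sequences were not used here, and the Cyp2d genes are near-identical in places, so how far each probe reads its own gene alone is uncertain.

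The Cyp2c genes stand in a cluster of 14 family genes on chromosome 19. Cyp2c65, an arachidonic acid epoxygenase of the gastrointestinal tract, was at 11.34, 10.87, 10.66 and 10.63 in C/+Lop arrays, 10.65, 10.13, 10.25 and 10.68 in C/-Lop arrays, 9.85, 9.17, 10.60 and 5.08 in SPF arrays, and 10.95, 10.75, 11.47 and 11.09 in GF arrays. SPF replicate 4 was far below every other array, although all SPF arrays lay under the GF range. The difference of -2.39 ± 0.78 SE in SPF against GF mice (adjusted p = 0.0428) was -1.19 without SPF replicate 4 (adjusted p = 0.0142) and -0.84 without SPF replicates 2 and 4 (adjusted p = 0.0728). The call was also lost when SPF replicate 2 (adjusted p = 0.0739) or any 1 of the 4 GF arrays was left out.

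The next gene in the cluster, Cyp2c55, which makes hydroxylated arachidonic acid in the colon, is given here because of the same array and was chosen after its values were seen. It was at 13.15, 13.41, 13.51 and 13.46 in C/+Lop arrays, 13.43, 13.09, 13.25 and 13.20 in C/-Lop arrays, 13.59, 13.06, 13.75 and 10.57 in SPF arrays, and 12.53, 12.33, 13.17 and 12.67 in GF arrays. SPF replicate 4 was again the lowest, and the other SPF arrays overlapped only the highest GF array. The difference was 0.07 ± 0.48 SE (adjusted p = 0.939), and the gene was called higher without SPF replicate 4. Cyp2c67 was at 4.62, 5.25, 5.50 and 5.53 in C/+Lop arrays, 6.26, 5.91, 5.25 and 5.83 in C/-Lop arrays, 5.99, 5.37, 5.05 and 6.90 in SPF arrays, and 6.87, 7.14, 5.77 and 6.52 in GF arrays, with SPF and GF arrays overlapping (difference -0.75 ± 0.37 SE, adjusted p = 0.159).

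**Figure D2:**
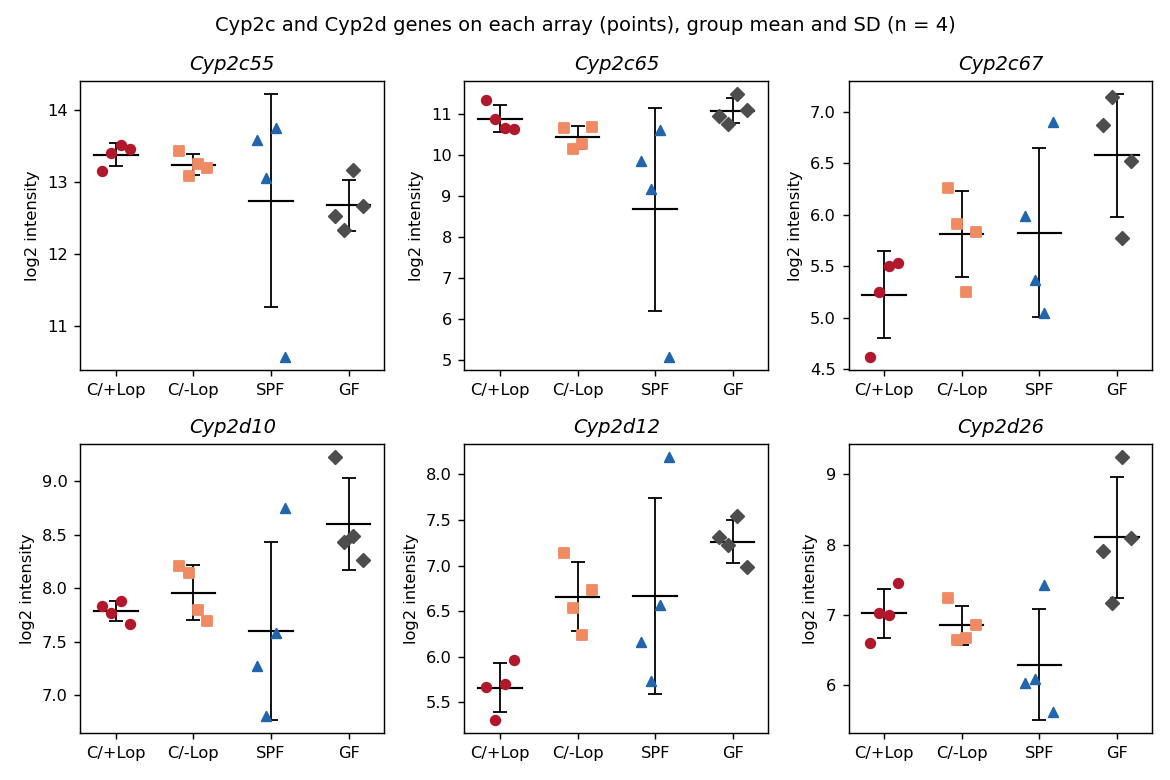
Log2 intensity (vertical axis) on each array of 3 Cyp2c and 3 Cyp2d genes, with the group mean as a line and the SD as a bar (n = 4), for C/+Lop, C/-Lop, SPF and GF mice from left to right. SPF replicate 4, the rightmost SPF point, is lowest for Cyp2c55 (10.57), Cyp2c65 (5.08) and Cyp2d26 (5.62) and highest of its group for Cyp2c67 (6.90), Cyp2d10 (8.75) and Cyp2d12 (8.19).

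The same array held the highest level of Cyp2f2, known for oxidizing naphthalene in lung airway cells, which was at 4.56, 4.60, 4.76 and 4.54 in C/+Lop arrays, 4.61, 5.21, 4.61 and 4.53 in C/-Lop arrays, 5.83, 5.61, 4.61 and 7.55 in SPF arrays, and 4.89, 5.20, 4.68 and 4.65 in GF arrays. Cyp2f2 was above background on 3 SPF arrays, 1 C/-Lop array and none of the C/+Lop or GF arrays. It therefore passed the filter on dim probes mainly through SPF arrays, where it was high. Against GF mice, where it was never above background, the SPF mean was at least 1.70-fold higher, and the test was not passed (adjusted p = 0.0788). Without SPF replicate 4 the difference of 1.04 became 0.49, and without SPF replicate 13 it became 1.47 and was called. Such bounds set the higher group's mean against the lowest signal above background on each array of the other group, or the probe's own value if that was higher.

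Members outside families 2 to 4 showed no call in any comparison. Cyp51, the lanosterol demethylase of cholesterol synthesis, averaged 9.98 ± 0.17 in C/+Lop, 9.83 ± 0.32 in C/-Lop, 9.67 ± 0.32 in SPF and 10.21 ± 0.41 in GF mice, and its difference in SPF against GF mice was -0.54 ± 0.21 SE (adjusted p = 0.076). Cyp27a1, the mitochondrial sterol hydroxylase, averaged 9.21 ± 0.05, 9.03 ± 0.21, 8.98 ± 0.53 and 8.55 ± 0.47 in the same order (SD, n = 4 each), with a difference of 0.43 ± 0.24 SE in SPF against GF mice (adjusted p = 0.207). Cyp26b1, which clears retinoic acid, was above background on 2, 2, 2 and 1 arrays of these groups. Cyp11b2, the aldosterone synthase of the adrenal gland, stayed between 5.01 and 5.47 on all arrays. For Cyp20a1, an orphan enzyme, the interval of the difference in SPF against GF mice ran from -0.35 to 0.48.

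Cyp2e1, which oxidizes ethanol and other small molecules, varied widely within groups. It was at 11.01, 9.67, 5.42 and 9.86 in C/+Lop arrays, 10.89, 9.03, 8.07 and 8.53 in C/-Lop arrays, 7.56, 8.55, 6.89 and 6.73 in SPF arrays, and 9.19, 4.92, 9.81 and 9.70 in GF arrays. GF replicate 2 and C/+Lop replicate 3 stood far below the other arrays of their groups. The interval of the difference in SPF against GF mice was wide, from -3.40 to 1.46, and no comparison was called. The mean of the 3 measured adipocyte markers of a list of 7 (Adipoq, Cidec and Lep) was also low on these arrays, at 5.37 in C/+Lop replicate 3 and 5.31 in GF replicate 2, and was highest at 9.58 in C/+Lop replicate 1 and 9.50 in C/-Lop replicate 1, where Cyp2e1 was highest. SPF replicate 4 was about as low for the markers (5.44), while its Cyp2e1 level was 6.73, the lowest of its group. The part of fat cells in the Cyp2e1 level was not tested.

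**Figure D3:**
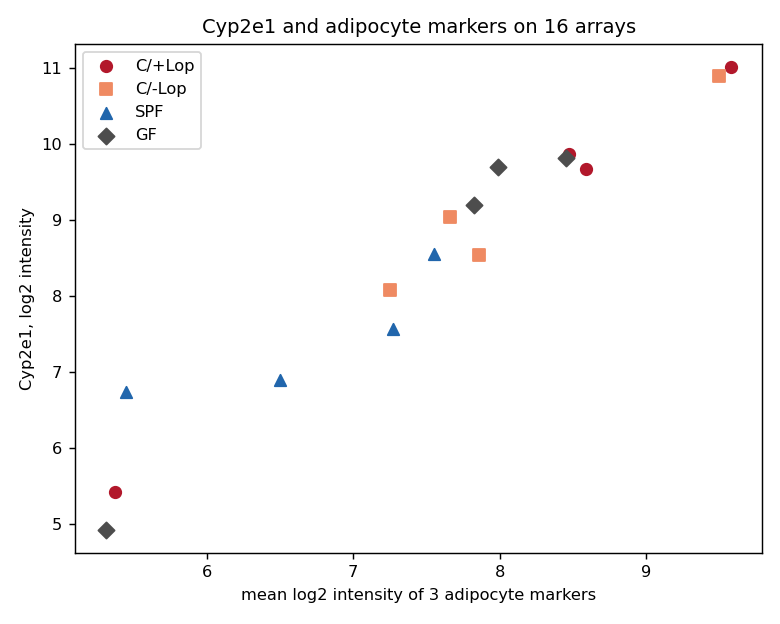
Cyp2e1 level against the mean of 3 adipocyte markers (both log2 intensity) on 16 arrays, 1 point an array, with the group shown by colour and symbol. Cyp2e1 spans 4.92 to 11.01, and the arrays lowest and highest in Cyp2e1 are also the lowest and highest for the markers. The match is looser elsewhere, as in SPF replicate 4 (markers 5.44, Cyp2e1 6.73).

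Of the 11 colonic epithelial markers, 5 were lower and 0 higher in SPF than in GF mice, with a median difference of -0.40. Of the 10 smooth muscle markers, 7 were higher and 0 lower (median 0.72). Over all genes, 9.55% were lower and 10.9% higher. The lower members did not all follow the epithelial mean among SPF arrays. Replicate 4, at 11.72, was the highest SPF array for Cyp2d9 (7.65) and Cyp2d10 (8.75) and the lowest for Cyp4b1 (5.34). The part of epithelial cells was not tested. With the epithelial mean as a covariate, 0.771% of all genes were called in SPF against GF mice, against 20.5% without it. Of the 28 members, 3 were called, Cyp4f14 (-0.94, adjusted p = 0.045), Cyp4b1 (-2.90, adjusted p = 0.0479) and Cyp2d22 (1.11, adjusted p = 0.0379). The epithelial means of SPF (11.46 to 12.01) and GF arrays (12.03 to 12.29) did not overlap, so this fit separates covariate and group only weakly. The SE rose from 0.44 to 0.62 for Cyp4b1 and from 0.31 to 0.43 for Cyp2d10. A call lost here therefore does not show which part of a difference is epithelial. In that fit Cyp2d9 had a difference of -1.23 (adjusted p = 0.115), Cyp3a13 of -0.44 (adjusted p = 0.413) and Cyp4f18 of 0.22 (adjusted p = 0.603). Without SPF replicates 2 and 4, 4.86% of all genes and 7 members were called, among them Cyp2d10, Cyp2d22, Cyp2d9, Cyp4b1 and Cyp4f14 of the 10, and Cyp2c55 and Cyp2d12 in addition.

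Genes that work with the family were measured on the same arrays, and the counts of these lists in SPF against GF mice stand beside 9.55% of all genes called lower and 10.9% called higher. Of 15 measured nuclear receptors and related regulators, 5 were lower and 0 higher in SPF than in GF mice (median -0.45), among them Nfe2l2, the regulator of oxidative stress genes (-0.67, adjusted p = 0.00533), the oxysterol receptor Nr1h3 (-0.63, adjusted p = 0.0131), Hnf4a (-0.64, adjusted p = 0.0185) and the bile acid receptor Nr1h4 (-0.86, adjusted p = 0.0229). Of 7 measured Ah receptor targets outside the family, 2 were lower, the quinone reductase Nqo1 (-0.90, adjusted p = 0.00208) and the glutathione transferase Gsta1 (-1.53, adjusted p = 0.00753), and 0 were higher. Ugt1a6a, a glucuronosyltransferase (-0.95, adjusted p = 0.0728), and Scin (-0.47, adjusted p = 0.0946) did not pass. Among 5 redox partners, cytochrome b5 (Cyb5a) was lower (-0.70, adjusted p = 0.00488) and the cytochrome b5 reductase Cyb5r3 was higher (0.40, adjusted p = 0.0323), while Pgrmc1 (-0.46, adjusted p = 0.145) and Cyb5r1 (0.27, adjusted p = 0.185) did not pass. With the epithelial mean as a covariate the differences were -0.10 for Hnf4a, -0.50 for Nr1h4, -0.70 for Nqo1 and -0.74 for Gsta1, none of them called. That fit, as said above, separates the epithelial mean and the group only weakly.

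Of 12 measured genes of haem synthesis and breakdown, 2 were lower and 0 higher in SPF mice, the biliverdin reductase Blvra (-0.37, adjusted p = 0.0106) and the haem oxygenase Hmox2 (-0.30, adjusted p = 0.0238). Alas1, the first enzyme of haem synthesis, had a difference of -0.41 (adjusted p = 0.11). Of 11 other enzymes of arachidonic acid metabolism, 2 were lower and 1 higher. Ephx2, the soluble epoxide hydrolase that opens the epoxides P450 enzymes make, averaged 6.99 in SPF and 8.26 in GF mice (-1.27, adjusted p = 0.000931). The prostaglandin dehydrogenase Hpgd was also lower (-0.96, adjusted p = 0.0017), and the thromboxane synthase Tbxas1 was higher (0.54, adjusted p = 0.0102). Ephx2 was lower than in GF mice in both recipient groups too, by -0.76 in C/+Lop (adjusted p = 0.0218) and -0.73 in C/-Lop mice (adjusted p = 0.0462), and Tbxas1 was higher in C/+Lop mice (0.46, adjusted p = 0.0424). No gene of the receptor, Ah target, redox and haem lists was called in either recipient group against GF mice. Of all genes, 2.76% were called in C/-Lop and 7.19% in C/+Lop mice against GF mice.

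Colonization with the microbiota of mice with PIC was followed by calls for 7 members against GF mice, 3 higher and 4 lower, against 7.19% of all genes called (3.33% higher and 3.86% lower). The members had a median difference of -0.24 and all genes of -0.01. Cyp2d9 was 3.76-fold lower in C/+Lop mice, with a mean of 6.67 ± 0.26 against 8.58 ± 0.39 in GF mice (SD, n = 4 each; log2 difference -1.91 ± 0.27 SE, adjusted p = 0.00197). Its chromosomal neighbour Cyp2d12 was at 5.67, 5.31, 5.70 and 5.96 in C/+Lop arrays, 7.14, 6.53, 6.24 and 6.73 in C/-Lop arrays, 6.16, 5.74, 6.57 and 8.19 in SPF arrays, and 7.31, 7.22, 7.54 and 6.98 in GF arrays. The C/+Lop arrays were the lowest group and lay below all C/-Lop and GF arrays, and the difference from GF mice was -1.60 ± 0.37 SE (adjusted p = 0.0188).

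Cyp2c67 (-1.35 ± 0.37 SE, adjusted p = 0.0376) and Cyp2d34 (-0.96 ± 0.27 SE, adjusted p = 0.0446) were lower as well, with all C/+Lop values under all GF values. Arrays of the C/+Lop and GF groups did not overlap for 17.4% of all genes. Cyp2d22 (0.92 ± 0.16 SE, adjusted p = 0.00497) and Cyp4f18 (0.91 ± 0.17 SE, adjusted p = 0.00728) were higher in C/+Lop than in GF mice. Cyp3a25 was higher, at 5.14, 5.90, 5.30 and 5.0 in C/+Lop arrays against 4.61, 4.38, 4.54 and 4.49 in GF arrays, where it was never above background, so that the level was at least 1.15-fold higher (adjusted p = 0.0456). It passed the filter on dim probes mainly through C/+Lop arrays, the group where it was high. The call was lost with no such filter, with cyclic loess normalization and with median scaling, and a stricter filter left the gene untested. Against 7.19% of all genes with every array, 3.31% to 6.69% were called with 1 array left out. The count of called members was 3 without C/+Lop replicate 1 or without replicate 2, and 4 without C/+Lop replicate 3 or without GF replicate 1, 3 or 4. Cyp2d9, Cyp2d22 and Cyp4f18 were called each time, and Cyp2d34 and Cyp3a25 in none of these 6 fits. Without GF replicate 2 the count stayed at 7, but Cyp2c67, Cyp2d34 and Cyp3a25 were replaced by Cyp2d26, Cyp2j9 and Cyp4v3.

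Colonization with control microbiota was followed by calls for 3 members against GF mice, 2 higher and 1 lower, against 2.76% of all genes called (1.46% higher and 1.3% lower). The median member difference was -0.27, against -0.01 over all genes. Cyp2d22 (1.01 ± 0.16 SE, adjusted p = 0.00474) and Cyp4f18 (0.96 ± 0.17 SE, adjusted p = 0.0104) were higher in C/-Lop mice. Cyp2d9 was 2.14-fold lower, averaging 7.48 ± 0.19 in C/-Lop and 8.58 ± 0.39 in GF mice (SD, n = 4 each; difference -1.10 ± 0.27 SE, adjusted p = 0.0453), and this call was lost when any 1 of the 8 arrays was left out.

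**Figure D4:**
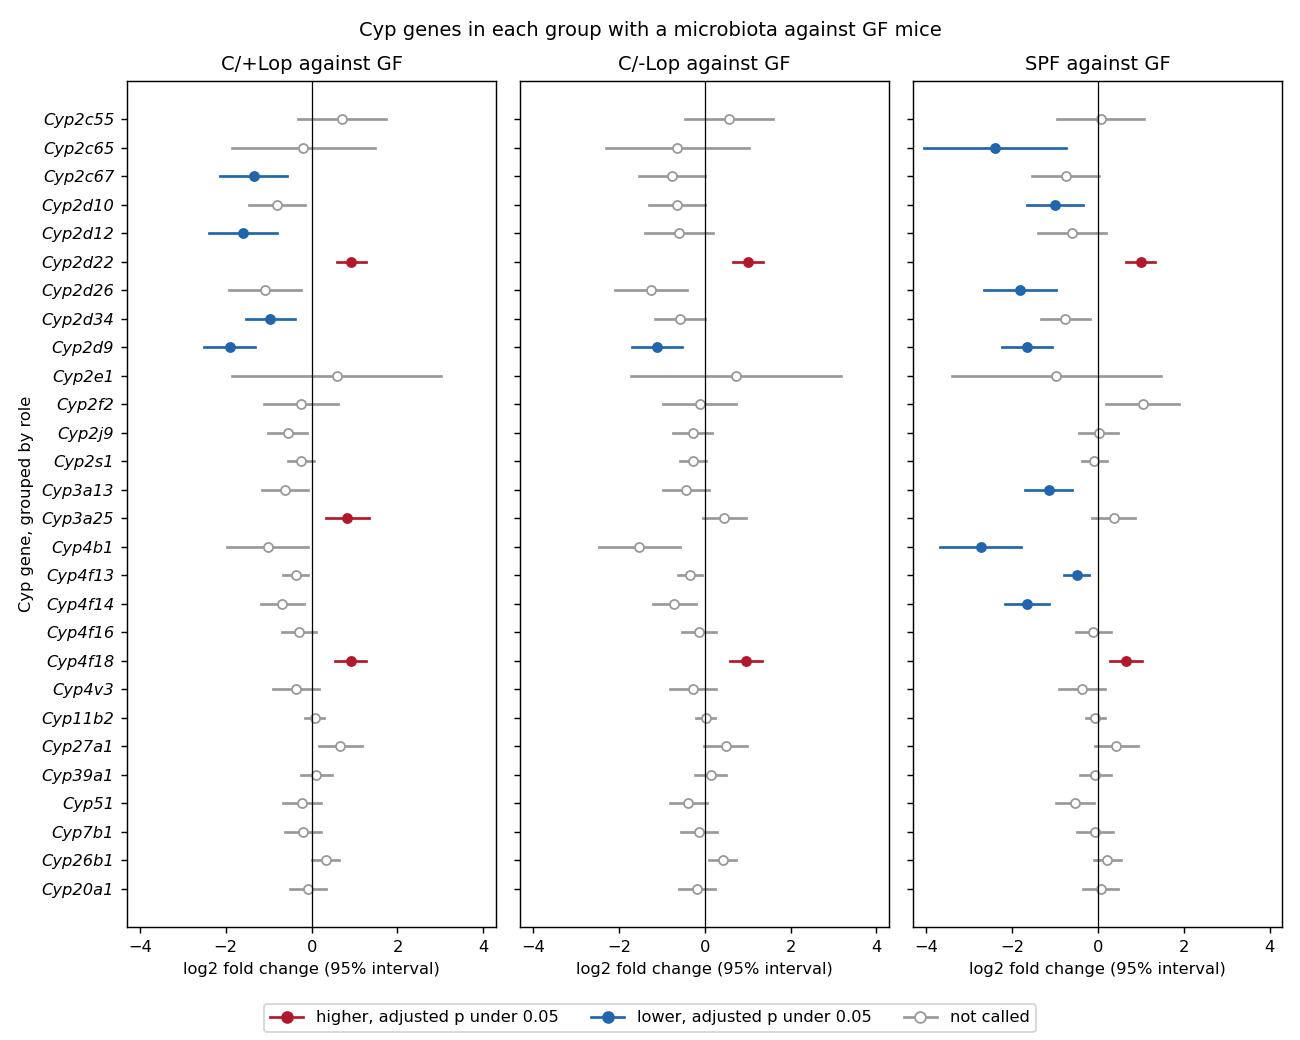
Log2 fold change with its 95% interval (horizontal axis) of the 28 tested Cyp genes, ordered by role from top to bottom, in C/+Lop, C/-Lop and SPF mice, each against GF mice. Filled points are called (7, 3 and 10 genes), open points are not, and Cyp2d22 and Cyp4f18 are called higher and Cyp2d9 lower in all 3 panels, which share the GF arrays.

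Recipients of microbiota from mice with PIC and recipients of control microbiota did not differ in any called P450 transcript. Of 28 members 0 were called, as were 0 of all 9862 genes (0%) in limma, although 2 members and 373 genes had an unadjusted p under 0.05, and the methods' t-test also called 0 members after adjustment. Cyp2d12 averaged 5.66 ± 0.27 in C/+Lop and 6.66 ± 0.38 in C/-Lop mice (SD, n = 4 each), without overlap, against 4.20% of all genes without overlap between these groups, and the interval of the difference of -1.0 ran from -1.79 to -0.21 before adjustment (adjusted p = 1). Cyp2d9 averaged 6.67 ± 0.26 in C/+Lop and 7.48 ± 0.19 in C/-Lop mice, also without overlap, with a difference of -0.81 (interval -1.39 to -0.23, adjusted p = 1). The third lower member by p was Cyp2c67, with a difference of -0.59 (interval -1.37 to 0.19).

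On the higher side, the smallest p were those of Cyp3a25 (0.38, interval -0.13 to 0.88), Cyp4b1 (0.50, interval -0.44 to 1.44) and Cyp27a1 (0.18, interval -0.32 to 0.68). For Cyp4f14 the difference was 0.02 with an interval from -0.48 to 0.53, and for Cyp2d22 it was -0.08 with an interval from -0.42 to 0.26. The widest interval was that of Cyp2e1 (-2.57 to 2.29).

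Set against SPF mice, few P450 transcripts of recipients were called. In C/+Lop mice 2 members were higher and 1 lower, against 21.1% of all genes (9.26% higher and 11.9% lower). Cyp4b1 averaged 8.38 ± 0.41 in C/+Lop and 6.67 ± 0.99 in SPF mice (SD, n = 4 each; difference 1.71 ± 0.44 SE, adjusted p = 0.0146). Cyp4f14 was higher by 0.97 ± 0.24 SE (adjusted p = 0.0112). Cyp2f2, never above background in C/+Lop mice, was at least 1.73-fold lower there than in SPF mice (adjusted p = 0.034), and the call was lost on leaving out any single C/+Lop array, SPF replicate 2 or SPF replicate 4 (without SPF replicate 4 the difference was -0.73, adjusted p = 0.0512). The gene entered the test mainly through SPF arrays, where it was high. Its call was also lost without a filter on dim probes, and a stricter filter left it untested. In C/-Lop mice only Cyp4f14 was called, 0.95 ± 0.24 SE higher than in SPF mice (adjusted p = 0.0154), against 16.4% of all genes (6.94% higher and 9.44% lower). Without SPF replicates 2 and 4, none of these calls was kept (Cyp4f14 0.45, adjusted p = 0.163 and Cyp4b1 1.26, adjusted p = 0.103 in C/+Lop mice, and Cyp4f14 0.43, adjusted p = 0.205 in C/-Lop mice), and without SPF replicate 2 alone Cyp4f14 was not called in C/-Lop mice (0.76, adjusted p = 0.0584). In both recipient groups 7 of the 10 smooth muscle and 3 of 6 fibroblast markers were lower than in SPF mice, and their part in these results was not tested.

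**Figure D5:**
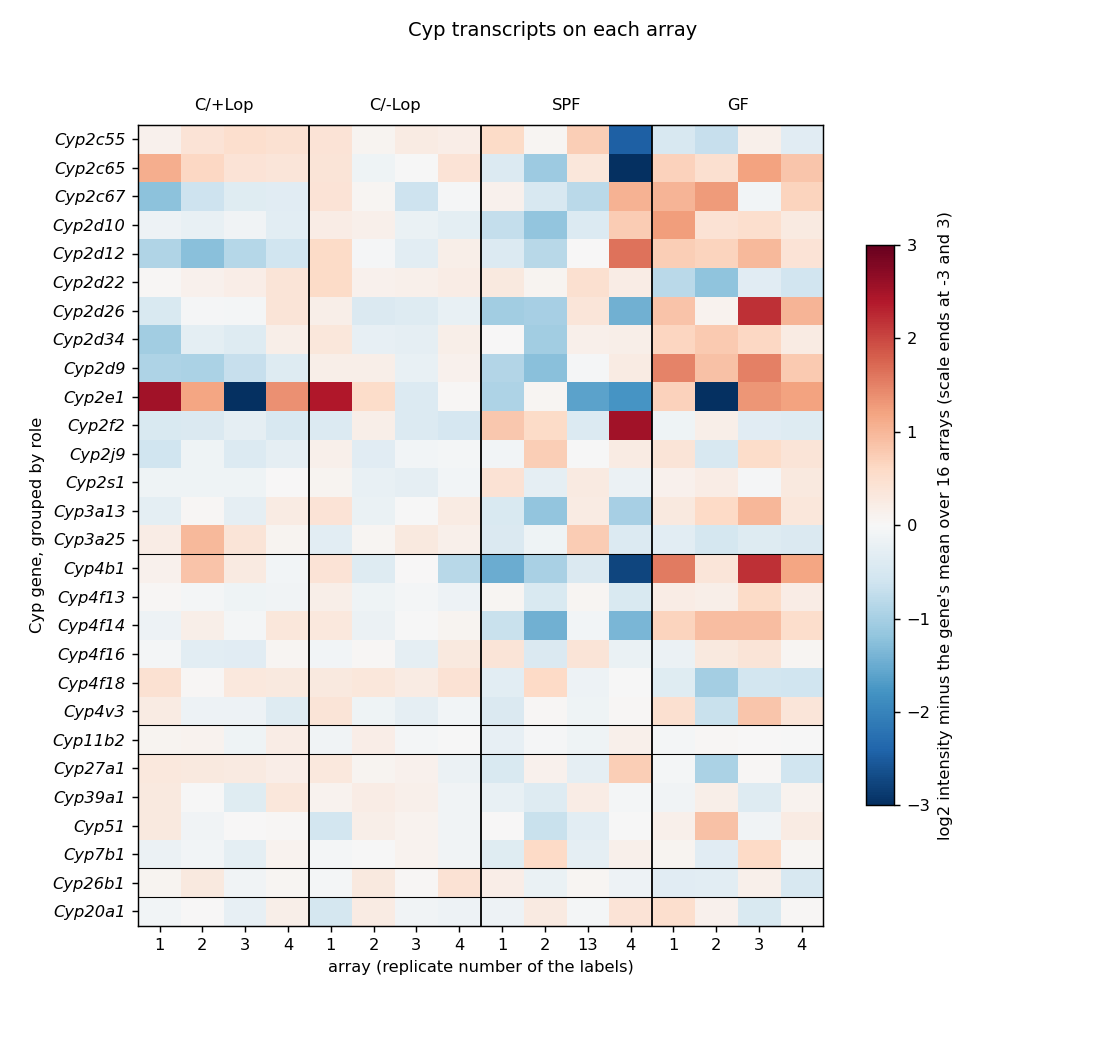
Level of the 28 tested Cyp genes on 16 arrays (columns, with C/+Lop, C/-Lop, SPF and GF mice from left to right) as the log2 intensity minus the gene's mean over all arrays, with colours ending at -3 and 3. Horizontal lines separate families 2 and 3, family 4, and the sterol, steroid, retinoic acid and orphan enzymes. SPF replicate 4 stands apart in Cyp2c55, Cyp2c65, Cyp2f2 and Cyp4b1, and Cyp2e1 varies within every group.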

How the data were processed

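RNA was measured on 16 Illumina mouse BeadChip arrays, grouped by the sample labels. The authors deposited bead-averaged intensity values without background subtraction, with the bead count behind each value (a median of 37 to 39 per array), its bead standard error (not used), and a detection p-value against negative controls. The authors also deposited normalized log2 values, and the submitters' processing notes name limma (which function, and its version, are not given in the sources used here).

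For the values reported, the neqc function of limma 3.58.1 (R 4.3.3) was applied to the intensities (normexp background correction, offset 16, quantile normalization, log2). The largest gap to the deposited log2 values was 0.0251. The filter kept 14102 probes, those detected (p under 0.05) on 4 or more arrays. A linear model of the 4 group means, fitted to the 16 arrays together, left 12 degrees of freedom. Its eBayes p-values were adjusted over these probes (Benjamini-Hochberg, threshold 0.05). A gene was represented by its kept probe with the highest mean. Intervals are 95% intervals of that fit. The number of arrays limits the precision. Fits were tested on simulated data.

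Probe names came from the platform annotation, of which 15091 of 15096 entries matched the GRCm38.p6 gene table. Promoters (26 of 33 members) were those of RefSeq, searched over the 200 bases upstream of the start on both strands. Members that passed a test in at least 1 comparison were named, with values on every array for 14 of them. In each role the 2 members with the smallest p in SPF against GF mice, and Cyp2e1, Cyp27a1 and Cyp51 in any case, were also named, with 3 in each direction between recipient groups and up to 4 genes of each list. The members, lists and markers were chosen with earlier results of these data known. Alternatives covered the values, background correction, normalization, filters, weights, covariates, probe choice, arrays left out and the test.

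The authors' text describes no test for these arrays, and its statistics section names Student's t-test, which was run as an alternative.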

Additional observations from a re-analysis of the deposited data

Results flagged for a closer look

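Among the 21 named members, 84 groups of 4 arrays were examined for an array far from the rest by Dixon's criterion, and 5 groups held one. Chance flags about 1 in 20 groups. Cyp2d9 in C/-Lop mice was at 7.19 in replicate 3, against 7.54 to 7.60 on the other 3 arrays. Cyp2f2 in C/-Lop mice was at 5.21 in replicate 2, against 4.53 to 4.61 on the others. Cyp2d34 in SPF mice was at 5.65 in replicate 2, against 6.71 to 6.87 on the others. Cyp2e1 in GF mice was at 4.92 in replicate 2, against 9.19 to 9.81 on the others, and the adipocyte marker mean of that array was 5.31, against 7.82 to 8.46. Cyp4f13 in GF mice was at 10.54 in replicate 3, against 10.13 to 10.19 on the others. No cause was tested.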

How the results depend on the processing

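Each result was recomputed under 14 alternatives besides leaving out 1 array. Of 24 called pairs of a member and a comparison, 1 was called under every alternative, Cyp2d9 in C/+Lop against GF mice. Over the 24 pairs, 372 alternative values were called and 124 were not, and 60 values of pairs not called became called. A sign changed in 75 of 2589 values, none of them called. In SPF against GF mice (10 members called) the count was 3 with the epithelial mean as a covariate, 4 in a fit of both groups alone and 0 with the methods' t-test, where 0.771%, 4.7% and 0.862% of all genes were called, against 20.5%. Leaving out 1 SPF or GF array gave 7 to 12 (9.77% to 25.4% of all genes). In C/-Lop against GF mice (3) it was 7 with array weights (8.4% of all genes, against 2.76%) and 0 with the t-test (0.73%). With 1 array left out it was 2 to 4 (0.771% to 2.48%). In C/+Lop against GF mice (7) it was 14 with array weights (13.8% of all genes, against 7.19%), 4 without a filter on dim probes (6.0%), 4 with the epithelial covariate (4.46%) and 2 with the t-test (2.99%). With 1 array left out it was 3 to 7 (3.31% to 6.69%). Between recipient groups it was 0 throughout. In C/-Lop against SPF mice (1) (16.4% of all genes) it was 2 with median scaling (23.8%), 5 with the replicate block (18.4%), 4 with Xist as a covariate (16.6%), 2 with the epithelial covariate (7.89%), 2 with the dimmest probe (16.1%), 0 in a fit of both groups alone (9.63%) and 0 with the t-test (5.47%). With 1 array left out it was 1 to 5 (7.23% to 21.6%), where 5 were called without SPF replicate 13 (21.6%) and 2 without SPF replicate 4 (12.1%). In C/+Lop against SPF mice (3) (21.1% of all genes) it was 5 with median scaling (23.4%), 6 with the replicate block (20.6%), 5 with the dimmest probe (20.6%), 0 with the t-test (6.43%) and 1 without SPF replicates 2 and 4 (6.62%). With 1 array left out it was 2 to 7 (10.8% to 23.8%), where 7 were called without SPF replicate 13 (23.8%) and 6 without SPF replicate 1 (21.7%). Where both groups were fitted alone, fewer arrays entered the fit, and otherwise the cause was not tested. Median scaling moved the median of all genes to -0.17 in C/-Lop and -0.16 in C/+Lop against SPF mice, and to -0.11 in C/-Lop against GF mice. The replicate numbers were not taken to pair the arrays. Deviations of same-numbered arrays from their group means correlated between -0.55 and 0.36 over all comparisons. Between the recipient groups the correlations were 0.02, 0.05, 0.18 and 0.36. Xist was high in replicates 2 and 3, and low in replicates 1 and 4, of both recipient groups. A pairing of the recipients therefore remains possible, and the main fit did not use one. With the replicate block, 10 members were called in SPF (21.5% of all genes), 2 in C/-Lop (1.74%) and 6 in C/+Lop (5.28%) against GF mice. It lost Cyp2d10 (adjusted p = 0.07) and gained Cyp2f2 in SPF mice, and lost Cyp2d9 in C/-Lop and Cyp2d34 in C/+Lop mice. Signals near background limit Cyp2f2, Cyp3a25, Cyp26b1 and Cyp11b2. They also limit Cyp2c67 in C/+Lop mice, where it was above background on 3 arrays. The other tested probe of Cyp4f18 was above background on 1 GF array.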
